A study of Saccharomyces cerevisiae with 2 samples.

Results

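Ribosome biogenesis factor genes encode the nucleolar proteins that cut, modify, fold and package ribosomal RNA into the small and large ribosomal subunits. A set of 60 of these nuclear genes of budding yeast (Saccharomyces cerevisiae), chosen by name for roles in nucleolar assembly, was examined among 6002 nuclear protein-coding genes. Earlier results of these data were known when the 60 were chosen. All 60 names matched 1 gene each of the RefSeq table of the R64 assembly, which carries the sacCer3 sequence. DNA held in RNA:DNA hybrids had been pulled down with the S9.6 antibody and sequenced (DRIP-seq), and the positions of the resulting peaks relative to these genes are described here.

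The culture was asynchronous and was harvested in mid-log growth in rich medium (YPAD) at 30 °C. It was of strain WRBb-9D, mating type MATa. Its alleles were bar1-delta, the tagged helicase gene RRM3::FLAG::KAN, the construct ura3::URA3/GPD-Tk(7x), the markers trp1-1, his3-11,15, can1-100 and ade2-1, and a mutant LEU2 marker. The series calls this background wild type, and the input DNA came from the same strain. There was 1 immunoprecipitate and 1 input, and the values below come from the peak list of the immunoprecipitate. With 1 library there is no replicate error on any value, no test between genes and no p-value. Depth is unknown, since the list holds no read counts. A site that forms hybrids in many cells and a site that forms more of them in fewer cells cannot be told apart in a bulk culture.

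Budding yeast makes ribosomes at a high rate in rich medium, and the genes for assembly factors are transcribed together with those for ribosomal proteins and with the rRNA itself. An RNA:DNA hybrid forms when a transcript pairs with its template strand, and the R loop that results leaves the other DNA strand single. The small-subunit processome is the large particle that assembles on the 5′ end of the pre-rRNA around the U3 snoRNA. Large-subunit factors act in successive particles on the 3′ side of the same transcript. The snoRNP core proteins carry the guide RNAs of rRNA methylation and pseudouridylation, and RNA helicases of the DEAD-box family remodel the particles.

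A gene was called touched when at least 1 bp of it lay inside a peak, and covered when at least 50% of its length did. Of the 60 genes, 21 were touched (35%, exact 95% interval 23.1 to 48.4), beside 21.2% of all nuclear protein-coding genes. Covered genes numbered 8 of 60 (13.3%, interval 5.94 to 24.6), beside 4.42% of all. With 500 bp added on each side, a peak reached 29 of the 60 (48.3%, interval 35.2 to 61.6), beside 30.6% of all. The intervals are Clopper-Pearson intervals for counting error only. They do not allow for the choice of the 60 genes, which was made with earlier results of these data known. The 3 shares over all genes include 75 long ORFs of the kind found in Ty retrotransposons and the ORFs nested in them. Without those, 3.58% of genes were covered, 20.3% touched and 29.8% reached with flanks. Restricted further to the length range of the members (177 to 3714 bp), the shares were 3.51%, 19.2% and 28.8%.

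No member lay close to the 50% line. The covered genes ran from 59.7% to 99.9% of their length inside peaks, and the next gene down, NOP2, had 35.6%. The covered genes were DRS1, DBP3, MAK16, EBP2, UTP6, NOP58, CBF5 and NOP10. The other 13 touched genes ran down to 0.326% for UTP13. A further 8 genes had a peak in a flank alone, and 31 had none within the gene or its flanks. The median cover of the gene with its flanks was 0% both for the 60 genes and for all genes. The means of this cover were 12.04% and 6.79%.

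**Figure D1:**
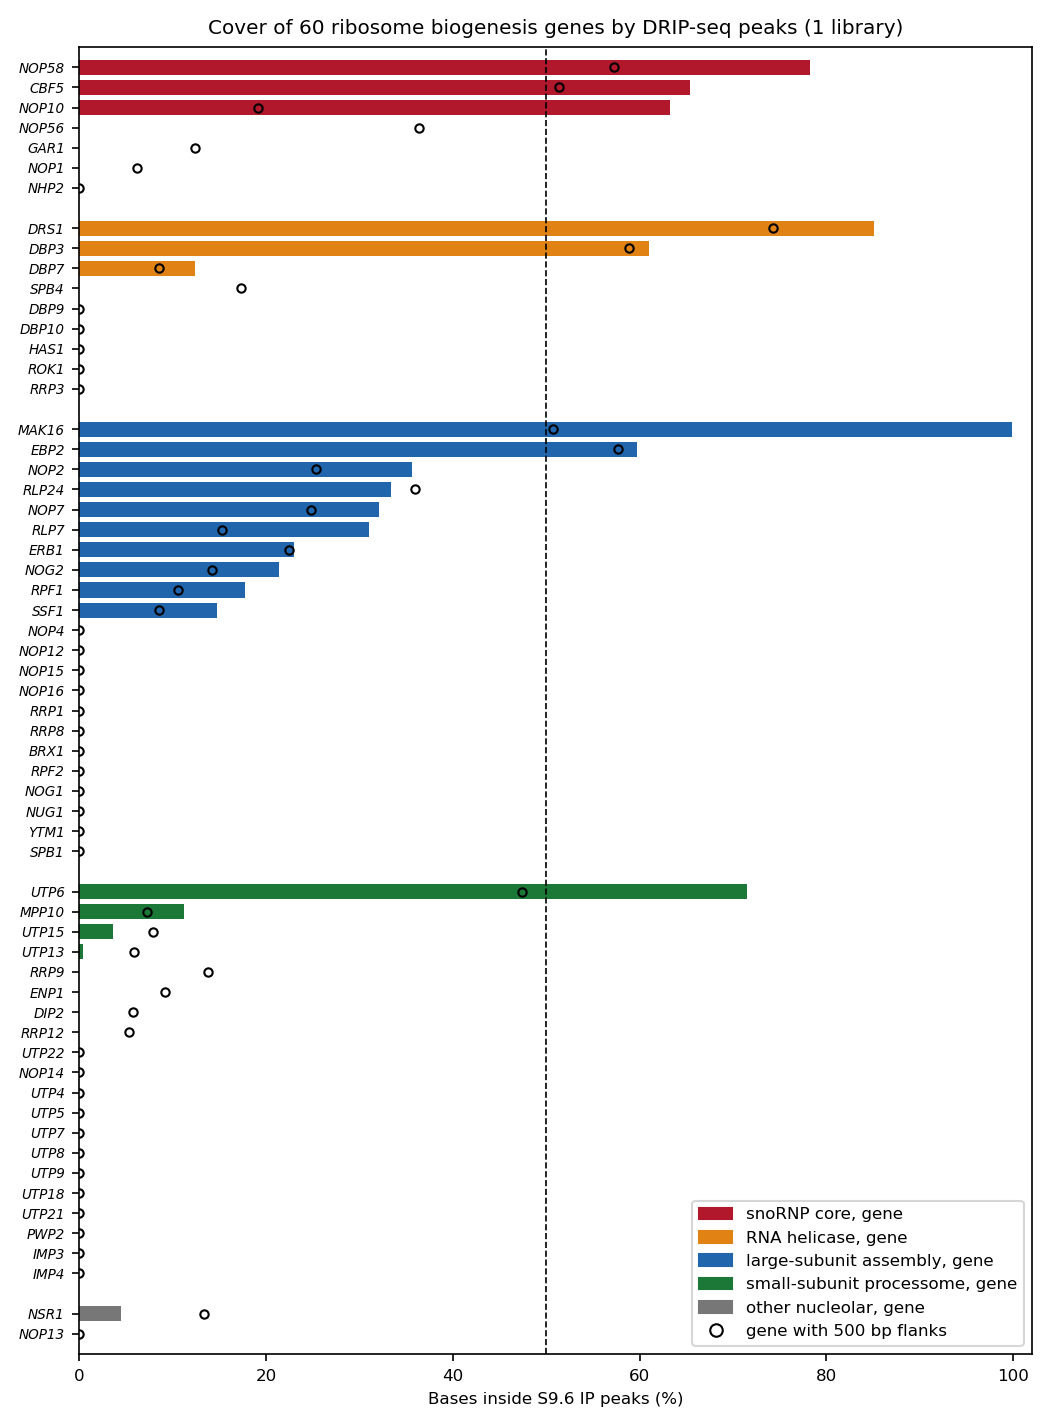
Share of each of the 60 genes inside S9.6 peaks (bars, %, coloured by class) and of the gene with its 500 bp flanks (open circles), with a dashed line at 50%. The 8 bars that cross the line are spread over 4 classes, and most genes of the small-subunit processome sit at 0.

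The 7 snoRNP core proteins had the largest share covered of the 5 classes, 3 of 7 (42.9%, interval 9.90 to 81.6), and 6 of 7 were reached with flanks. Their genes were short, with a median of 984 bp. The medians were 1323 bp for large-subunit, 1785 bp for helicase and 1858.5 bp for small-subunit genes. Across all genes shorter ones were covered more often (below), and class was not tested apart from length. NOP58, a core protein of the box C/D particles that guide 2′-O-methylation, lies on chromosome XV (896825 to 898360, minus strand) and was 78.2% inside peaks. Its peak ran from 896701 to 898025 with an authors' score of 61, and only 136 of the 1687 nuclear peaks scored higher. That peak left the 5′ end of the gene free: its 5′ edge lay 335 bp into the gene and it reached past the stop codon.

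CBF5, the pseudouridine synthase of the box H/ACA particles, lies on chromosome XII (506134 to 507585, plus strand) and was 65.4% inside peaks. There were 2 peaks in the gene, at 506351 to 506575 (score 19) and 506826 to 507550 (score 28), and both lay wholly within it. NOP10, the smallest H/ACA protein, is encoded by a gene of 177 bp on chromosome VIII (241664 to 241840, plus strand), of which 63.3% was inside a peak at 241551 to 241775. NOP10 is shorter than the shortest peak of the list, 200 bp. Its peak scored 21, below the nuclear median of 24, and had its summit 76 bp before the gene.

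The other 4 snoRNP genes had no base inside a peak. NOP56, the box C/D partner of NOP58, was bracketed: a peak at 545551 to 546050 (score 34) ended 47 bp before its start and another at 547651 to 548625 (score 38) began beyond its end. The gene with its flanks was 36.4% inside peaks. NOP1, the methyltransferase known as fibrillarin in animals, had a peak with a score of 27 downstream, between it and SLX5. GAR1 had in its downstream flank a peak that touches RPF1, and NHP2 had none.

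Among the 9 RNA helicase genes, 2 were covered and 3 touched. DRS1, a helicase of the large-subunit pathway on chromosome XII (131729 to 133987, plus strand), was 85.1% inside 2 peaks, and it carried the highest score over any of the 60 genes. The first peak, from 130501 to 132625, scored 93, which 68 nuclear peaks exceeded, and its summit stood 259 bp into the gene. The second, from 132926 to 133950, scored 54 and lay wholly within the gene. The first peak was also the widest over any of the 60 genes, at 2125 bp, and 42.2% of it was in DRS1.

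DBP3, a helicase needed for efficient cleavage in the first internal spacer, lies on chromosome VII (360288 to 361859, minus strand) and was 61.0% inside a peak at 360901 to 362050 with a score of 32. In contrast to NOP58, the peak covered the 5′ end: it began 191 bp before the gene and its summit was 258 bp into it. DBP7, a helicase of early large-subunit particles, was 12.3% inside a peak of score 15, near the lowest score in the list, 13. SPB4 had a peak in its downstream flank, and DBP9, DBP10, HAS1, ROK1 and RRP3 had none in the gene or flanks. ROK1 and RRP3 act on the small subunit and HAS1 on both. Both covered helicase genes belong to the large-subunit pathway, as do most genes of this class, so this does not set them apart.

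Of the 22 large-subunit assembly genes, 10 were touched (45.5%, interval 24.4 to 67.8), beside 21.2% of all genes. Covered were 2 of 22 (9.09%), beside 4.42% of all. MAK16, a protein of early large-subunit particles, lies on chromosome I (100225 to 101145, minus strand) and was 99.9% inside a peak at 100226 to 101200 with a score of 52. This peak matched the gene almost base for base, with 94.4% of the peak in the gene. EBP2, needed for processing of the 27S precursor, lies on chromosome XI (125759 to 127042, plus strand) and was 59.7% inside peaks. It had a peak near its start (125926 to 126225, score 32) and another across its end (126576 to 127300, score 52).

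A further 6 large-subunit genes had between 20% and 50% of their length inside peaks. NOP2, a methyltransferase of 25S rRNA, had 35.6% in 2 peaks with scores of 26 and 32, the first of them across its start. RLP24, which holds the place of a ribosomal protein in nuclear particles, had 33.3% in a peak of score 21. NOP7 (32.1%) carried the second highest score over the 60 genes, 87, in a peak at 696651 to 697350 on chromosome VII that lay across the 3′ end of the gene. RLP7, a relative of a ribosomal protein, had 31.0% in a peak of score 15.

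ERB1, a partner of NOP7 in the complex called PeBoW in mammals, had 23.0%, in a peak of score 52 close to its start and a peak of score 21 across its end. NOG2, a GTPase of late nuclear particles, had 21.3% in a peak of score 34 near its 3′ end. YTM1, the third member of the NOP7 complex, had no peak in the gene or flanks. Thus 2 genes of this complex of 3 were touched and none was covered.

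RPF1 (17.7%) and SSF1 (14.7%), both of the Brix family, each had a peak of score 26 near the 3′ end. SSF1 has a close paralog, SSF2, so its value is uncertain where reads could be shared. The Brix-family genes BRX1 and RPF2 had no peak. Nor had NOP4, NOP12, NOP15, NOP16, RRP1, RRP8, NOG1, NUG1 and SPB1, among which RRP8 and SPB1 are rRNA methyltransferases and NOG1 and NUG1 are GTPases. The class thus split into 10 touched genes and 12 with no peak base even in the flanks.

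The 20 genes of the small-subunit processome were touched at 20% (4 of 20, interval 5.73 to 43.7), close to the 21.2% of all genes, and 1 was covered. UTP6, of the UTP-B complex, lies on chromosome IV (1357580 to 1358902, minus strand) and was 71.5% inside a peak at 1357426 to 1358525 with a score of 34. The peak began 377 bp into the gene and ran past its end. MPP10, the scaffold of a complex with IMP3 and IMP4, had 11.2% in a peak of score 27, and its partners had none.

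UTP15 of the UTP-A complex (3.63%, score 15) and UTP13 of UTP-B (0.326%, score 16) were touched at their 3′ ends by peaks of 200 bp that lay mostly downstream. For UTP13 the overlap was 8 bp, less than the 25 bp step in which the peak positions were deposited. Peaks in a flank alone were found for RRP9, a protein of the U3 snoRNP (score 43, downstream), RRP12 (score 19, downstream), ENP1 (score 23, upstream) and DIP2 of UTP-B (score 15, upstream). The remaining 12, UTP4, UTP5, UTP7, UTP8, UTP9, UTP18, UTP21, UTP22, PWP2, IMP3, IMP4 and NOP14, had no peak in gene or flanks. Of the 5 UTP-A genes 1 was touched, and of the 6 UTP-B genes 2.

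The last 2 genes belong to no class above. NSR1, the yeast relative of nucleolin, had a peak of score 23 over its start, with 4.50% of the gene and 244 bp of the upstream flank inside. NOP13, an RNA-binding nucleolar protein, had no peak. The differences in share between the classes were not tested, since each class holds few genes of 1 library, and the intervals of the classes overlap.

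**Figure D2:**
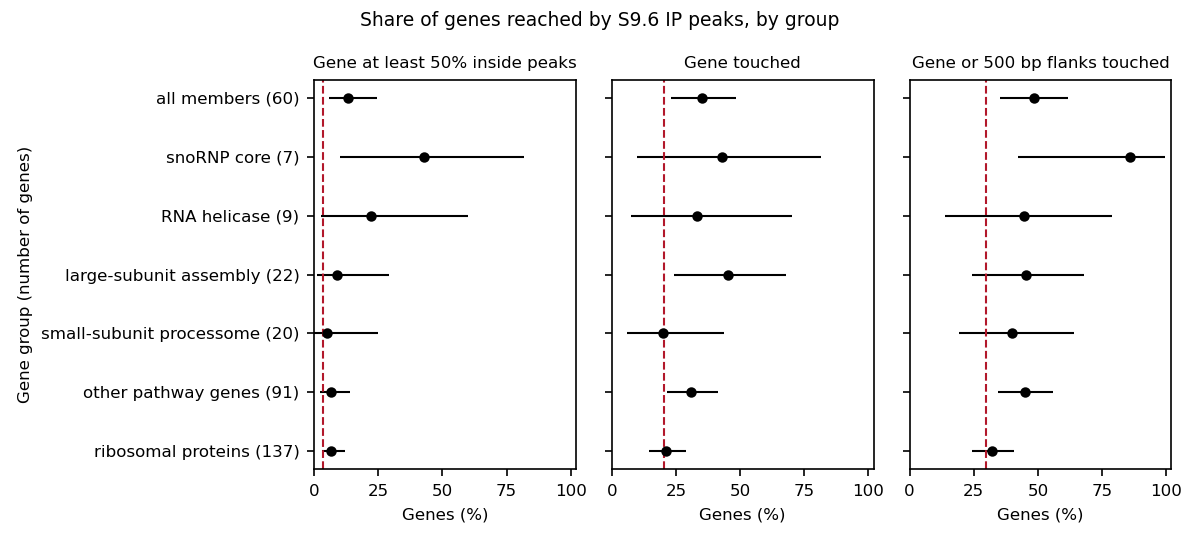
Share of genes (%) that were at least 50% inside peaks, touched, or reached within 500 bp, for the 60 genes, 4 classes, 91 other genes of the pathway and 137 cytoplasmic ribosomal protein genes. Bars are exact 95% intervals for counting error, and the dashed lines give all nuclear protein-coding genes without Ty ORFs (3.58%, 20.3% and 29.8%); the snoRNP core proteins lie furthest right for the share covered.

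The 60 genes were longer than most, with a median length of 1552.5 bp beside 1200 bp for all genes. Across all genes, longer ones were touched more often and covered less often. Among genes without Ty ORFs from 177 to 1552 bp, 4.63% were covered and 16.4% touched, and of the 30 members in this range 6 were covered and 12 touched. From 1553 to 3714 bp, 1.25% of genes were covered and 25.01% touched, and of the 30 members there 2 were covered and 9 touched. In the longer range the members' share touched, 9 of 30, was thus near that of other genes. The covered members had a median length of 1387.5 bp, and the 39 untouched ones 1665 bp.

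A total of 26 peaks touched the 60 genes, 1 peak on each of 16 genes and 2 on each of 5. Their median width of 325 bp equalled that of the 1390 nuclear peaks that touched a protein-coding gene. Their median score was 27.5 beside 24, and 17 of the 26 scored 24 or more. The summit lay inside the gene for 22 peaks, upstream for 2 and downstream for 2, and 12 peaks lay wholly inside the member gene. These peaks were picked because they touch a member, and the median member, at 1552.5 bp, is longer than the median peak. Summits were not counted in this way for other genes, so these counts are description only. No peak that touched a member also touched a tRNA gene or a Ty ORF.

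**Figure D3:**
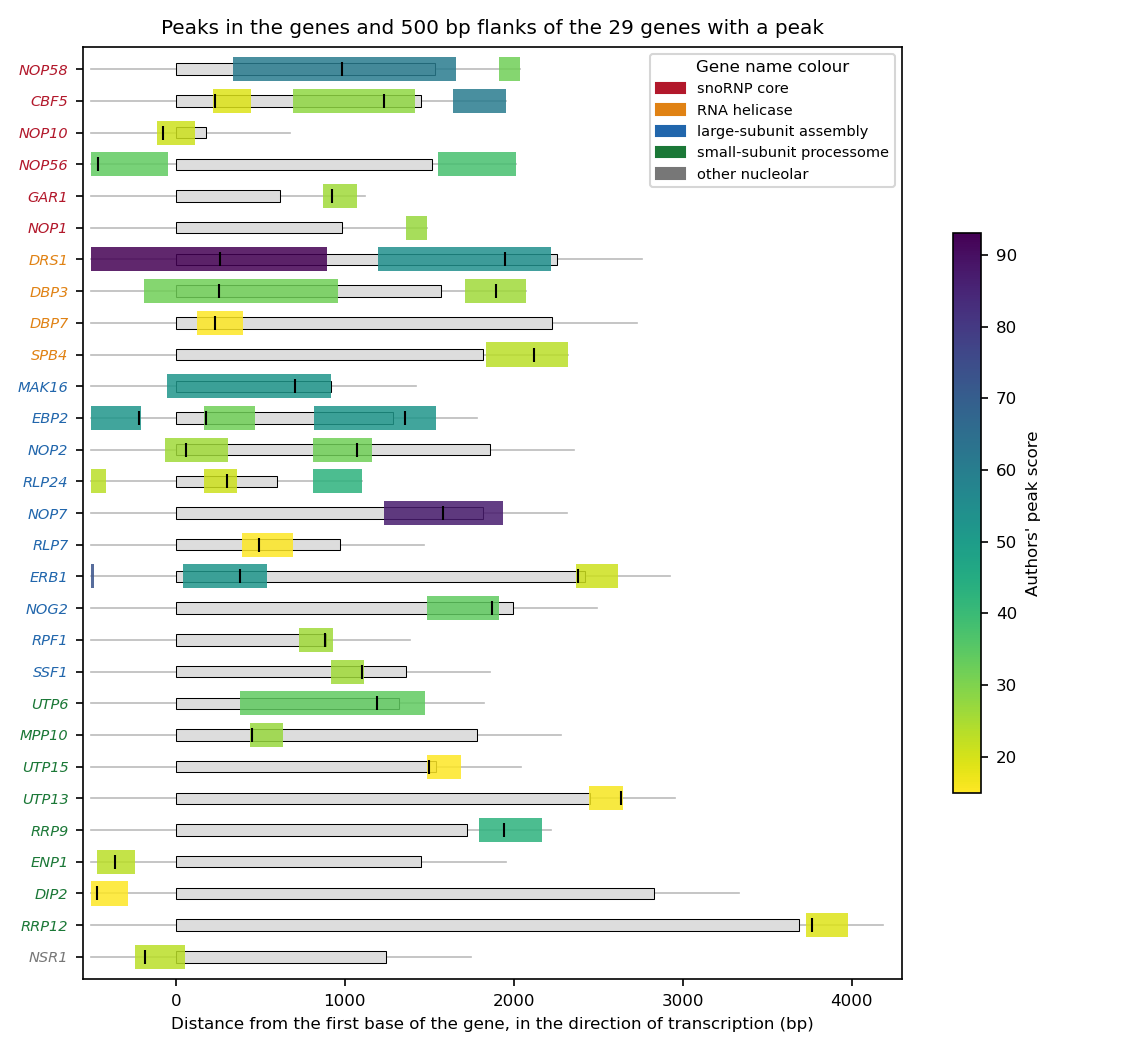
Peaks of the 29 genes with a peak in the gene or within 500 bp, drawn to scale in bp from the first base of the gene in the direction of transcription. Grey boxes are genes, coloured boxes are peaks shaded by the authors' score (from 15 to 93) and cut at the flanks, and ticks are summits; peaks of the covered genes lie at the 5′ side in DBP3, at the 3′ side in NOP58 and UTP6 and over the whole gene in MAK16.

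Place along the gene was read in the direction of transcription, with each gene weighted equally. In the 500 bp upstream, 8.21% of bases were inside peaks on average, beside 6.23% for the 5927 genes without Ty ORFs. In the 3 equal parts of the gene from 5′ to 3′ the shares were 12.7%, 13.9% and 14.6%, beside 5.67%, 5.38% and 6.03%. In the 500 bp downstream the share was 14.01%, beside 6.72%. The excess over other genes was therefore 1.98 percentage points upstream and between 7.06 and 8.61 points over the gene and downstream.

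The 8 covered genes supply much of this. In the 52 members that were not covered, the shares were 5.05% upstream, 3.99%, 4.31% and 5.59% in the gene, and 11.03% downstream. Among all 5715 genes that were not covered, Ty ORFs aside, the same places had 4.71%, 3.21%, 2.52%, 3.58% and 5.25%. Choosing uncovered genes limits the shares inside the gene but not those of the flanks, so these places were not ranked. The upstream and downstream flanks were not tested against each other, so no preference between them is read from these shares.

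By class, the large-subunit genes had 13.2%, 15.2% and 21.7% in the 3 parts from 5′ to 3′, and the helicases 26.3%, 15.9% and 10.6%, the reverse order. The helicase values rest on 3 touched genes. The small-subunit genes had 2.06%, 5.35% and 5.59% in the gene, and 11.2% in the downstream flank. The snoRNP genes had their highest share downstream, 38.4%, beside 6.72% for genes without Ty ORFs. That share is a mean over 7 genes and was not tested.

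**Figure D4:**
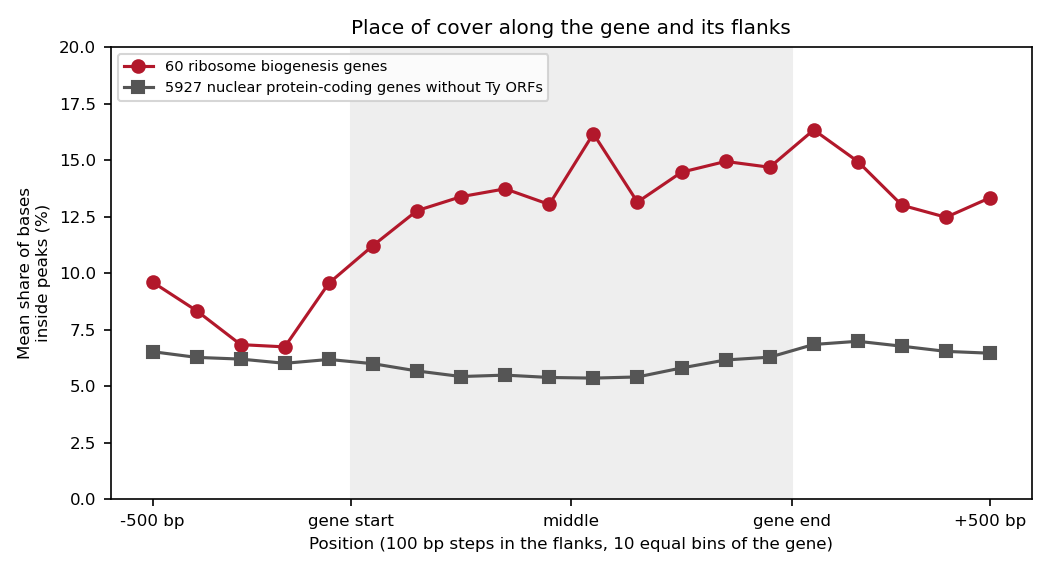
Mean share of bases inside peaks (%) in 100 bp steps of the flanks and in 10 equal bins of the gene, for the 60 genes (circles) and for 5927 nuclear protein-coding genes without Ty ORFs (squares). The line of the 60 genes is closest to the other upstream of the start and stays above it through the gene (shaded) and the downstream flank.

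Of the 26 peaks over these genes, 2 also touched another gene (7.69%). Among the 1390 nuclear peaks on protein-coding genes 14.1% touched 2 or more genes, and among the 1251 of them away from tRNA genes and Ty ORFs 7.27% did, close to the share for the members. The first was the wide DRS1 peak, which spans the divergent gap upstream and holds all of COX17, a copper chaperone gene, and part of PSR1. The second lay across the gap between the convergent genes ERB1 and CSM3. In both, the summit stood inside the member gene.

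Of the 16 nearest annotated genes of the 8 covered members, 7 were touched and 4 covered, beside 20.3% and 3.58% of protein-coding genes without Ty ORFs. No count was made for the neighbours of other covered genes, so these counts are description only. These 4 were COX17 (100%), under the peak it shares with DRS1, SNU66 (64.5%), a splicing factor gene downstream of NOP58, RFX1 (62.8%) downstream of CBF5, and KXD1 (53.3%) downstream of DBP3. Over all 60 genes, 38 of 120 such neighbours were touched and 10 were covered, of which 2 were Ty ORFs and 1 a tRNA gene. Among the 114 neighbours that are protein-coding and no Ty ORFs, 35 were touched (30.7%) and 7 covered (6.14%), beside 20.3% and 3.58% of all such genes. The members GAR1, RPF1, SSF1 and RRP3 are themselves among these neighbours. A further 15 peaks lay in a flank alone, of which 12 touched a neighbouring gene and 3 touched none. Among the 12, the peak downstream of RLP24 holds TEN1 and a tRNA gene, and the one upstream of ERB1 holds a tRNA gene. The peak downstream of GAR1 is that of RPF1, so these 2 members, which converge, share it.

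The gaps beside the 60 genes were sorted by the orientation of the nearest protein-coding neighbour. Between convergent genes, 8 of 31 gaps held peak bases (25.8%), beside 10.1% of 1429 such gaps in the nuclear genome. Between genes in tandem, 12 of 57 did (21.1%, beside 11.0% of 2612), and between divergent genes 4 of 24 (16.7%, beside 11.3% of 1404). The convergent gaps had median lengths of 235 bp for the members and 219 bp for all. Gaps with a Ty ORF on a side were left out, among them the downstream gaps of RRP9 and SPB4. Strand was not recorded in the peak list, so which gene's transcript a hybrid in a gap held is not known.

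A list of 91 other genes of the pathway was set beside the 60. Of these, 6 were covered (6.59%, interval 2.46 to 13.8), beside 4.42% of all nuclear protein-coding genes, a share within that interval. Touched were 28 (30.8%), beside 21.2% of all. Covered were RPA34 (100%, score 80), a subunit of RNA polymerase I, RRN11 (88.5%, score 141), a subunit of the core factor for rDNA transcription, ALB1 (82.4%, score 83), SOF1 (72.8%, score 80), NIP7 (62.3%, score 16) and LOC1 (52.8%, score 26). The peak or peaks on RRN11 also reach CAT2 and the unnamed ORFs YML045W and YML045W-A. Each score listed is the highest of any peak on the gene, so 141 may be that of a peak shared with these neighbours. Leaving out peaks at tRNA genes or Ty ORFs still left 6 of the 91 genes covered. The peaks of RPA34 and ALB1 also reach the neighbours SMT1 and MTC1. By class, 2 of 11 RNA polymerase I genes, 3 of 36 further large-subunit genes and 1 of 44 further small-subunit genes were covered. In both lists small-subunit genes therefore had a lower share covered (5% and 2.27%) than large-subunit genes (9.09% and 8.33%). These are differences of few genes and were not tested. Helicases are a class of their own among the 60 but sit within the subunit classes of the 91. With helicases put in their subunit class, 4 large-subunit and 1 small-subunit genes of the 60 were covered. The share touched did not keep this order: it was 36.4% for the 44 further small-subunit genes and 19.4% for the 36 further large-subunit genes, and with flanks 52.3% and 36.1%. Cytoplasmic ribosomal protein genes, with a median length of 771 bp, had 9 of 137 covered (6.57%) and 29 touched (21.2%). All nuclear protein-coding genes had 4.42% covered and 21.2% touched.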

How the data were processed

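The submitters' processing notes name MACS2 2.1.1.20160309, SAMtools 1.7 and the build sacCer3. For the aligner, the threshold and the input's handling, details were not given in the sources used here. Per the labels, DNA was cut with restriction enzymes and amplified before 200 bp libraries were made. Where the cut sites lay relative to peak edges was not examined. Places given along a gene are thus those of the deposited intervals, and may differ from the ends of the hybrids. The deposited list holds 1723 peaks (1687 nuclear), with positions in steps of 25 bp and a score that is the authors' value, of unstated scale, which served here to order peaks and to filter them. Its fold, p and q columns hold 0 throughout and were not used.

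Genes came from a RefSeq table of R64, and strands from systematic names. Lengths are genomic spans of the annotated genes, any introns included. For 59 of the 60 members they are multiples of 3, as coding lengths are, so flanks were taken to include UTRs. Ty ORFs are unnamed ORFs over 5000 bp of shared length, 30000 bp or more from the ends, with the ORFs nested in them. Overlaps were computed in Python 3.11.15 with code tested on simulated peaks, and intervals with SciPy 1.17.1. The members and lists were chosen with earlier results of these data known. Values are given in full for members at least 20% inside peaks, for other pathway genes if covered. A planned comparison of promoter motifs was not made, as no sequence was used here.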

Additional observations from a re-analysis of the deposited data

How the results depend on the processing

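Of 40 alternative values, 29 stayed within 1.5 times the reported one. With the 847 nuclear peaks of score 24 or more, 6 of the 60 genes were covered (3.68% of all genes) and 14 touched (11.5%). Genes reached with flanks fell from 29 to 19 (16.5% of all genes), upstream cover from 8.21% to 5.24%, and peaks shared with a neighbouring gene from 2 to 1. Leaving out peaks at tRNA genes or Ty ORFs left 8 covered, 21 touched and 29 reached (2.93%, 19.2% and 28.4% of all genes). At 90% of the length, 1 gene was covered (1.67% of the 60, beside 1.45% of all genes). At 25% there were 12 (8.96%), 6 of them large-subunit genes and none further in the other classes, and 13 other pathway genes. The large-subunit class had 4 covered with its helicases. With 200 bp around each summit no gene of either list (0) was covered, as such windows seldom span a gene. There 20 of the 60 were touched (18.2% of all genes), and their median cover with flanks was 0.882%, beside 0% for all genes. With 1000 bp flanks that median was 5.23%, again beside 0% for all genes, and 34 genes were reached (37.6% of all). No paired analysis was possible because a single list of peaks, from 1 immunoprecipitate, supplied every value. The limits are 1 library, unknown depth, and no measure of transcription in these cells.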
